A study of Mus musculus with 3 samples.

Results

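The miR-34 family of mouse was followed by 5 of its mature miRNAs among the 899 listed in the tables: mmu-miR-34a-5p, mmu-miR-34b-5p, mmu-miR-34b-3p, mmu-miR-34c-5p and mmu-miR-34c-3p, where mmu stands for mouse and is mostly left out below. They were chosen by name, and all 5 were found. Mature miRNAs were measured by sequencing in cultures of C57BL/6 bone marrow taken at post natal week 11, in 1 library for each of 3 stages of osteoclast formation. Mature osteoclasts (mOC) were made from bone marrow macrophages with the growth factor M-CSF at 30 ng/mL and the osteoclast-inducing cytokine RANKL at 100 ng/mL over 72 h or more, and preosteoclasts (pOC) with the same factors over 24 h. The macrophages (BMM) were grown from floating marrow cells with M-CSF at 50 ng/mL for 72 h. All cultures shared exposure to the bisphosphonate alendronate, 500 µM for 12 h, which was added so that they would shed apoptotic bodies. The series title names exosomes instead, so it is not clear which vesicle, if any, the RNA came from. No column is headed BMM. In the tables mOC and pOC are set against a library headed R, and since no label explains that letter, R was matched to no sample, its counts were not analysed here, and R is known only through the authors' fold changes.

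MicroRNAs are short RNAs that guide a silencing complex to messenger RNAs, mainly through the seed, bases 2 to 8 of the mature strand. A hairpin precursor yields a 5p and a 3p strand, and the strand that is kept is called the guide. The miR-34 genes are direct transcriptional targets of the tumour suppressor p53, and their guide strands repress regulators of the cell cycle and of cell survival such as Cdk6, Met and Bcl2. Mir34a is transcribed on its own and is found in most tissues, while Mir34b and Mir34c share 1 transcript that is most abundant in testis and in ciliated epithelium. In mice, miR-34a has been described as a brake on osteoclast formation through its target Tgif2.

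Mature sequences for 4 of the 5 members were taken from RefSeq (GRCm38.p6). They are shown, 5′ to 3′ with the seed in capitals, because the seed decides which members can act on the same targets. The other arm of Mir34a and the miR-449 relatives with the same seed stand beside them.

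miR-34a-5p: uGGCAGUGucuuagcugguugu

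miR-34b-5p: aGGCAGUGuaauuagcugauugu

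miR-449a-5p: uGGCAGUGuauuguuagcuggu

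miR-449c-5p: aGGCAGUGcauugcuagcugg

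miR-34a-3p: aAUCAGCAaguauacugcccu

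miR-34b-3p: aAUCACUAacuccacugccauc

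miR-34c-3p: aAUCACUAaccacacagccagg

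The 5p strands shown carried the same seed, GGCAGUG, and miR-34a-5p and miR-34b-5p differed by an edit distance of 4 bases over their length. The 3p strands of Mir34b and Mir34c shared another seed, AUCACUA, and differed by an edit distance of 5 bases. The 3p strand of Mir34a had neither of these seeds. The hairpin of miR-34a-5p lies on chromosome 4 (GRCm38, 150068454 to 150068555, plus strand), within an exon of Gm37795, a GENCODE M21 gene model that awaits experimental support. The hairpins of Mir34b (51103562 to 51103645) and Mir34c (51103034 to 51103110) lie 451 bases apart on the minus strand of chromosome 9, in an intron of the protein-coding gene Btg4, which runs on the opposite strand. The miR-34b-5p and miR-34c-5p guides are near-identical, and how reads that match both were assigned is not given in the sources used here, so the split between those 2 is uncertain.

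The mOC library held 7017707 assigned counts and the pOC library 5430426. A count of 0, taken as up to 3 counts, allowed 0.427 CPM (counts per 1000000 assigned counts) in mOC and 0.552 CPM in pOC. Neither stage had a replicate, so every difference lacks a replicate check, and the 95% intervals cover counting error only. Of 4 miRNAs of myeloid cells, none was at 0, and their summed level was 9233 CPM in mOC and 5480 CPM in pOC. Most of that sum was miR-142a-5p, at 7261 CPM in mOC and 5112 CPM in pOC. By comparison, miR-142a-3p was at 1704 CPM in mOC and 285 CPM in pOC, and miR-223-3p at 250 and 70.3 CPM. In these bulk samples fewer cells of a type and less RNA per cell cannot be told apart.

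The comparison of mOC with pOC showed that the family did not move as a unit. miR-34a-5p was higher in mOC, the miR-34b-5p and miR-34c-5p guides lay within 2-fold of pOC, and the miR-34c-3p strand was lower. A miRNA was called here when its log2 ratio reached 1 in size, its counts in the 2 libraries summed to 10 or more and its interval excluded equality. Of the 560 miRNAs with enough counts, 21.1% were called, 8.75% higher and 12.3% lower. These were 49 miRNAs higher and 69 lower. The split became 80 and 49 with the authors' scaling constants, those of their normalised columns. Their deposited fold changes of pOC over mOC do not follow these constants. Of the 4 members with enough counts, 1 was called higher and 1 lower. The median log2 ratio was -0.25 over the 5 members, against 0.04 over the 560 miRNAs. That median is the value of miR-34b-3p, which had 2 counts in each library.

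mmu-miR-34a-5p, the most abundant member, had 2221 counts in mOC and 806 in pOC. These were 316 CPM in mOC (95% Poisson interval 303 to 330) and 148 CPM in pOC (138 to 159). It stood at position 118 of the 899 miRNAs by abundance in mOC and at 140 in pOC. The level was 2.13-fold higher in mOC (exact binomial interval 1.97 to 2.31), a log2 ratio of 1.09 just past the 2-fold line, which the interval includes. Among the 337 miRNAs with 50 counts or more in a library, its log2 ratio was the 35th from the top. Its other strand, miR-34a-3p, had 29 counts in mOC and 18 in pOC, a fold of 1.25 whose interval held equality (0.669 to 2.38).

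mmu-miR-34c-5p, the more abundant guide of the chromosome 9 pair, had 265 counts in mOC and 266 in pOC. Scaled, these were 37.8 CPM in mOC (33.4 to 42.6) and 49.0 CPM in pOC (43.3 to 55.2). It was 1.30-fold lower in mOC (1.09 to 1.54), within 2-fold. With the constants of the authors' normalised columns, which their deposited fold changes do not follow, the interval held equality (0.903 to 1.28-fold lower). mmu-miR-34b-5p had 64 counts in mOC and 44 in pOC, 9.12 CPM in mOC (7.02 to 11.6) and 8.10 CPM in pOC (5.89 to 10.9). The intervals of miR-34b-5p overlapped, and its fold of 1.13 had an interval from 0.755 to 1.69. Summed, the guides of Mir34b and Mir34c had 329 counts in mOC and 310 in pOC, a fold of 0.821 (0.701 to 0.962). The sum may count shared reads under both names, which was not tested. Equal counts under 2 names did occur, as for miR-199a-3p and miR-199b-3p, each with 6687 counts in mOC and 4862 in pOC. The counts of miR-34b-5p and miR-34c-5p were not equal, so that example does not show how their reads were assigned.

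The 3p strands were scarce. mmu-miR-34c-3p had 6 counts in mOC and 19 in pOC, 0.855 CPM in mOC (0.314 to 1.86) and 3.50 CPM in pOC (2.11 to 5.46). It was 4.09-fold lower in mOC, with an interval from 1.57 to 12.5. miR-34b-3p had 2 counts in each library, under the 3-count limit, so no fold is given for it. The calls of miR-34a-5p and miR-34c-3p held under all 5 scalings tried, but neither was called by edgeR's exact test when the coefficient of variation between libraries was assumed to be 0.4.

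**Figure D1:**
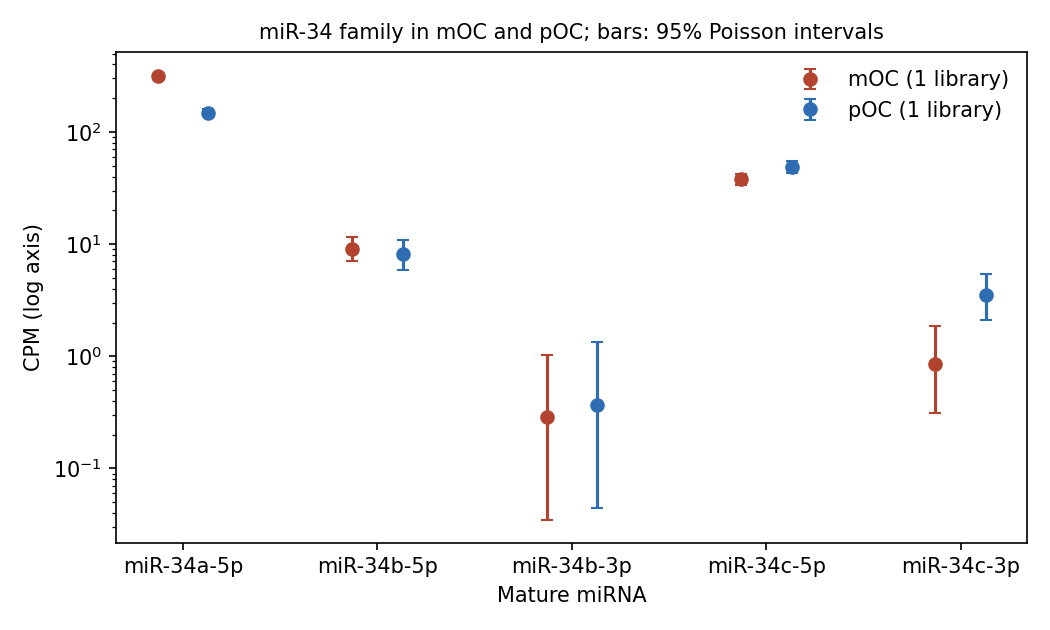
Level of each of the 5 members in CPM on a log axis, mOC left of pOC, 1 library each. Points are the measured levels and bars 95% Poisson intervals; miR-34a-5p is the highest in both libraries and higher in mOC (316 against 148 CPM), the intervals of miR-34b-5p overlap, and miR-34c-3p is lower in mOC (0.855 against 3.50 CPM).

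A ratio taken within a library does not depend on how the libraries are scaled. There were 6.59 counts of miR-34a-5p for each count of the 4 chromosome 9 strands in mOC, against 2.44 in pOC. The ratio was 2.71-fold higher in mOC (exact conditional interval 2.27 to 3.23). With guides alone it was 2.60-fold higher (2.17 to 3.10). Against miR-34c-5p alone it was 2.77-fold higher (2.28 to 3.35), and against miR-34b-5p alone 1.89-fold (1.25 to 2.85). The order of the members was the same in both libraries: miR-34a-5p, miR-34c-5p, miR-34b-5p, miR-34c-3p and miR-34b-3p, with the intervals of the last pair overlapping in mOC.

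In shares of the family, miR-34a-5p made up 86.8% of the 2558 counts in mOC (exact binomial interval 85.5 to 88.1%) and 70.9% of the 1137 counts in pOC (68.2 to 73.5%). miR-34c-5p made up 10.4% in mOC (9.21 to 11.6%) and 23.4% in pOC (21.0 to 26.0%). miR-34b-5p took 2.50% in mOC (1.93 to 3.18%) and 3.87% in pOC (2.83 to 5.16%). The share of miR-34a-5p was therefore larger in mOC and that of miR-34c-5p smaller, each beyond counting error. Over all 5 members the level was 365 CPM in mOC and 209 CPM in pOC, 1.74-fold higher in mOC (1.62 to 1.87), and miR-34a-5p accounted for most of those counts.

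**Figure D2:**
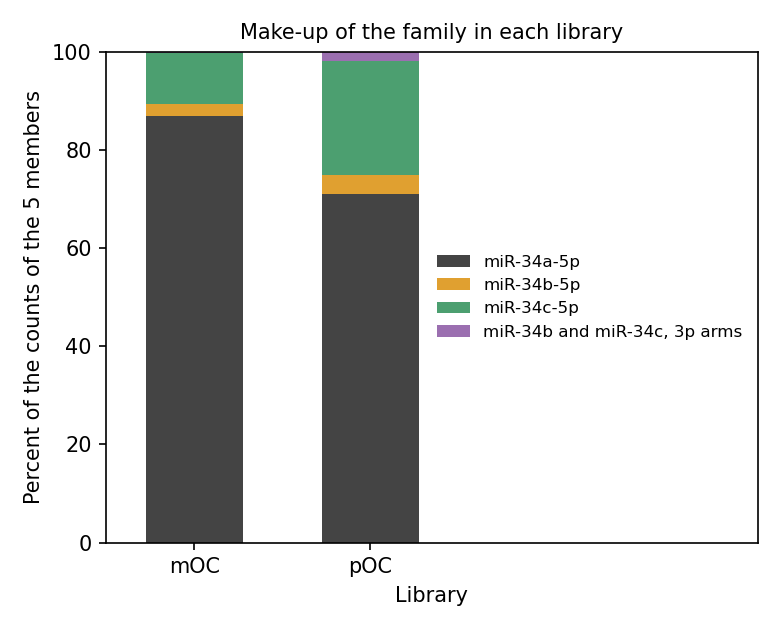
Make-up of the family in mOC (left) and pOC (right), as the percent of the counts of the 5 members taken by each guide and by the 3p strands of Mir34b and Mir34c together. The share of miR-34a-5p is 86.8% in mOC and 70.9% in pOC, and that of miR-34c-5p 10.4% in mOC and 23.4% in pOC.

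The guide of Mir34c outnumbered its 3p strand 44.2 to 1 in mOC and 14.0 to 1 in pOC, a ratio 3.15-fold higher in mOC (1.19 to 9.79). The log2 ratios of its arms differed by 1.48. For comparison, there were 134 hairpins whose arms each had at least 10 counts summed over mOC and pOC. Their median absolute difference between arms was 0.63. Besides Mir34c, 16 of them (12.0% of the other hairpins) differed by at least as much as Mir34c. For Mir34a the guide outnumbered the other strand 76.6 to 1 in mOC and 44.8 to 1 in pOC, and that change held equality in its interval (0.889 to 3.21). Within the chromosome 9 pair, miR-34c-5p outnumbered miR-34b-5p 4.14 to 1 in mOC and 6.05 to 1 in pOC, and the interval of the change also held equality (0.439 to 1.06). These relations between guide and other strand rest on few counts of the 3p strands.

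The comparisons with R came from the authors' deposited table, which gives a log2 fold change and an unadjusted p-value for each miRNA. There the chromosome 9 guides stood above R at both stages, and miR-34a-5p did not. For miR-34b-5p the authors' deposited table gave a log2 fold change of 2.14 in mOC over R and 2.01 in pOC over R. For miR-34c-5p it was 1.77 in mOC and 2.19 in pOC in the authors' deposited table. For miR-34a-5p the authors' deposited table gave 0.33 in mOC over R and -0.72 in pOC over R, on opposite sides of R and both within 2-fold. In the authors' deposited table miR-34c-3p was at 0.83 in mOC and 2.87 in pOC, and miR-34b-3p at -0.14 in mOC and 0.25 in pOC, the last on 2 counts in each of these libraries.

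At the thresholds of their lists (a 2-fold difference with a p-value below 0.05) the authors' deposited table called 5.78% of the 899 miRNAs higher in mOC than in R and 6.56% higher in pOC. Of the 5 members, 2 were higher in mOC (miR-34b-5p and miR-34c-5p) and 3 in pOC (with miR-34c-3p) in the authors' deposited table. All of these are strands of Mir34b and Mir34c, which share a transcript, and reads may be shared between the guides. They are therefore not separate units to set against the share of all miRNAs. By the 2-fold difference alone the same 2 and 3 members were higher in the authors' deposited table, against 17.1% of all miRNAs in mOC and 19.4% in pOC. In the authors' deposited table no member lay 2-fold below R, against 19.5% of all miRNAs in mOC and 18.2% in pOC. The median log2 fold change of the 5 members in the authors' deposited table was 0.83 in mOC and 2.01 in pOC, against -0.08 and 0.00 over all 899 miRNAs. The median in mOC is the value of miR-34c-3p, which had 6 counts there, and the median in pOC is that of miR-34b-5p. miR-34b-5p was 6th from the top of the 337 more abundant miRNAs in mOC and 8th in pOC, and miR-34c-5p 8th in mOC and 6th in pOC, by the log2 values of the authors' deposited table. In the same order miR-34a-5p was 111th in mOC and 302nd in pOC. The mOC and pOC values share the library R, so they are not independent of each other. No replicate measured the spread behind the authors' p-values, so it had to be assumed, and how this was done over R was not checked.

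**Figure D3:**
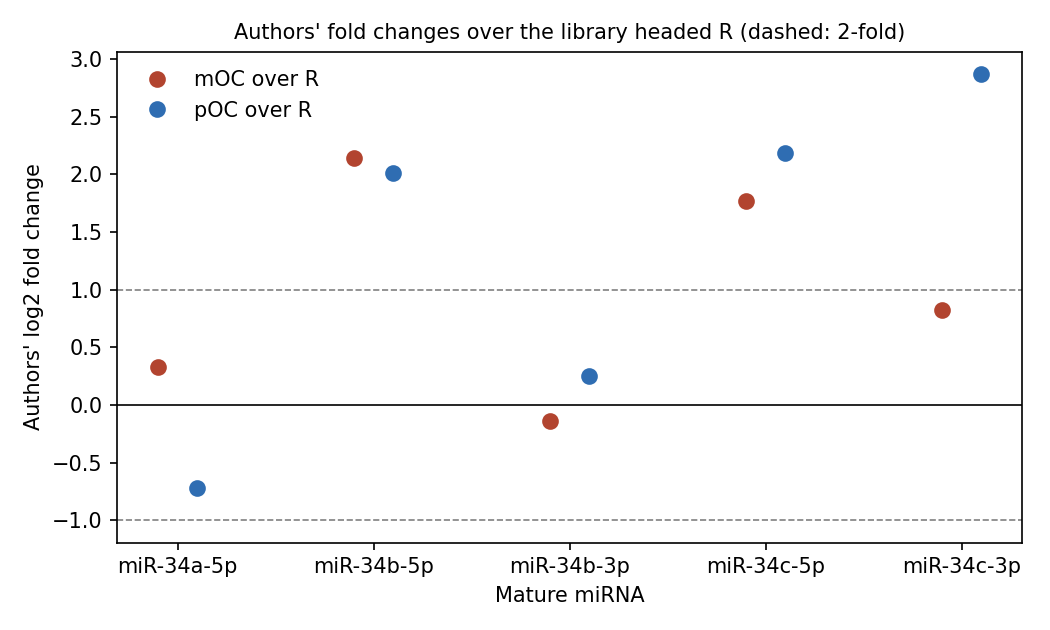
Log2 fold changes of the 5 members over the library headed R from the authors' deposited table, mOC left of pOC; the solid line marks equality and the dashed lines a 2-fold difference. miR-34b-5p and miR-34c-5p lie above the upper dashed line at both stages (1.77 to 2.19), miR-34a-5p lies between the dashed lines (0.33 in mOC and -0.72 in pOC), and miR-34c-3p is above 2-fold in pOC alone.

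The difference of 2 log2 fold changes over R gives the change of the ratio between 2 members without regard to scaling. From the authors' deposited table, miR-34a-5p relative to miR-34c-5p was lower than in R by a log2 difference of -1.44 in mOC and -2.91 in pOC, a ratio 2.71-fold lower in mOC and 7.50-fold lower in pOC. Relative to miR-34b-5p, the difference from the authors' deposited table was -1.81 in mOC and -2.73 in pOC. By contrast the chromosome 9 guides kept close to each other: miR-34c-5p minus miR-34b-5p was -0.37 in mOC and 0.18 in pOC from the authors' deposited table. The split of reads between these 2 guides is uncertain, and the part of shared reads in their closeness was not tested. The balance of miR-34a-5p against the chromosome 9 guides was thus furthest from R in pOC and nearer to R in mOC.

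**Figure D4:**
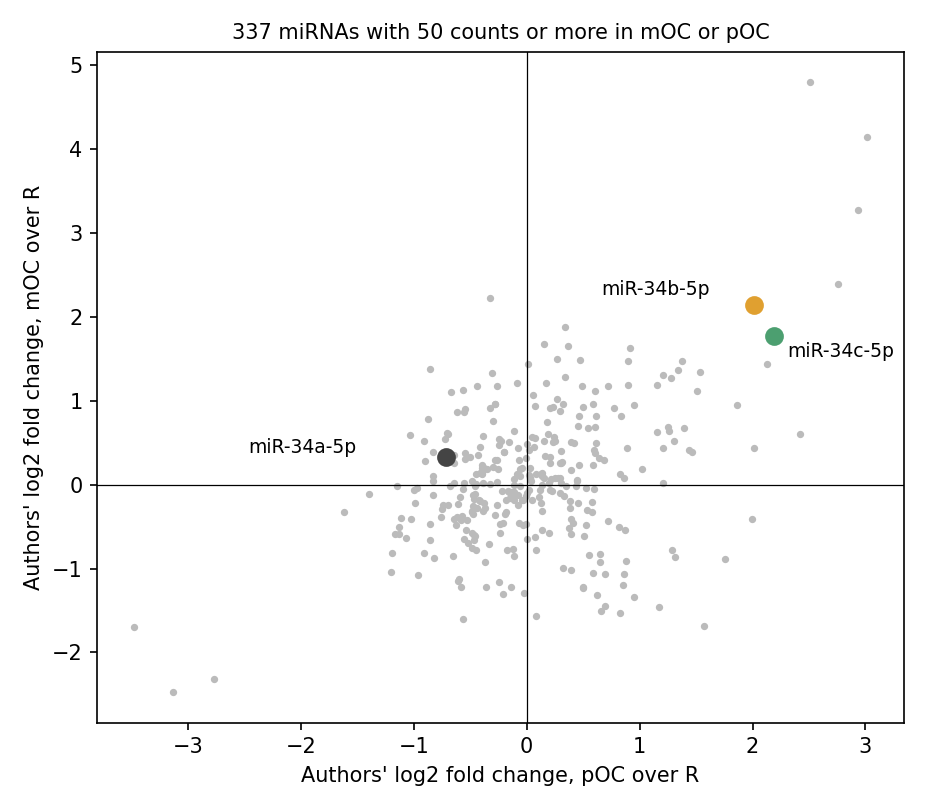
The 337 miRNAs with 50 counts or more in mOC or pOC (grey), placed by the authors' log2 fold change of pOC over R (horizontal) and mOC over R (vertical), with the 3 guides of the family in colour. miR-34b-5p and miR-34c-5p lie together at the upper right and miR-34a-5p left of centre; both axes share the library R.

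Likeness of pattern was measured by the distance between the 2 log2 fold changes over R in the authors' deposited table, over mOC and pOC and among the same 337 miRNAs. The nearest to miR-34a-5p in the authors' deposited table were miR-195a-5p (distance 0.07), miR-301a-5p (0.10) and miR-378a-5p (0.12). miR-195a-5p had 184 counts in mOC and 69 in pOC. The nearest to miR-34c-5p in the authors' deposited table were miR-99a-5p (distance 0.35), miR-34b-5p (0.41) and miR-96-5p (0.78). With only 2 values per miRNA, these distances describe these libraries and no more.

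The miR-449 relatives, whose hairpins lie in an intron of Cdc20b on chromosome 13 and which mark ciliated cells, carry the seed of the guides. miR-449a-5p had 85 counts in mOC and 35 in pOC, 12.1 CPM in mOC and 6.45 CPM in pOC. It was 1.88-fold higher in mOC (1.25 to 2.87), under the 2-fold line. With the constants of the authors' normalised columns it was 2.27-fold higher (1.51 to 3.47), past that line. The authors' deposited fold change itself was 1.89-fold higher in mOC, under the line. The number of miR-34a-5p counts for each count of miR-449a-5p was 26.1 in mOC and 23.0 in pOC, and the interval of that change held equality (0.736 to 1.72). miR-449c-5p had 9 counts in mOC and 1 in pOC, and its interval held equality (0.965 to 305-fold). In the authors' deposited table miR-449a-5p stood at 0.94 in mOC over R and at 0.07 in pOC over R.

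Other miRNAs described as induced or matured under p53 did not share 1 direction. Of 12 listed, 11 were in the tables, 7 of them also markers of epithelium, stroma or liver, and in mOC against pOC 1 was called higher and 4 lower, against 8.75% higher and 12.3% lower over all miRNAs with enough counts. Their median log2 ratio was -0.41, against 0.04 over all of these. With the authors' scaling constants 2 were higher and 3 lower, since miR-194-5p was then called higher and miR-141-3p no longer lower. miR-200c-3p, an epithelial miRNA, was higher in mOC with 595 counts in mOC and 178 in pOC (log2 ratio 1.37). Lower in mOC were miR-143-3p (-2.10) and miR-145a-5p (-1.32), neighbours that also mark stromal cells, and miR-215-5p (-1.51), a relative of miR-192. The other was miR-141-3p, with 15 counts in mOC and 28 in pOC, named after its values were seen. Against R, the authors' deposited table called 0 of the 11 higher and 2 lower in mOC, miR-143-3p and miR-141-3p, and 0 in either direction in pOC. Over all 899 miRNAs the authors' deposited table called 6.23% lower in mOC and 4.12% lower in pOC.

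Marker lists of other sources differed between the libraries as well. Their calls stand against 8.75% higher and 12.3% lower in mOC over all miRNAs with enough counts. The 7 epithelial markers summed to 169 CPM in mOC and 84.3 CPM in pOC, with none at 0. The largest of them was miR-200c-3p, at 84.8 CPM in mOC and 32.8 CPM in pOC. Of the 6 epithelial markers with enough counts 3 were called higher in mOC and 1 lower, miR-141-3p. With the authors' scaling constants 4 were called higher and 0 lower. Scaled to totals without the 5 most abundant miRNAs, 2 were called higher and 1 lower. The 2 measured ciliated-cell markers, the miR-449 pair, summed to 13.4 CPM in mOC and 6.63 CPM in pOC. Neither was called, but with the authors' scaling constants both were called higher in mOC. The 5 erythroid markers summed to 299 CPM in mOC and 842 CPM in pOC, with 4 called lower in mOC and 0 higher. Of these, miR-486a-5p and miR-486b-5p had nearly the same counts (333 and 341 in mOC, 818 and 847 in pOC). They may be shared reads counted under both names, which was not tested, so the sum and the calls may hold them more than once. The 4 liver or serum markers summed to 952 CPM in mOC and 2768 CPM in pOC, with miR-122-3p at 0 in mOC. Of the 3 with enough counts, 1 was called lower in mOC, miR-122-5p (410 CPM in mOC and 2042 CPM in pOC), and 0 higher. Within 2-fold, miR-192-5p was lower in mOC, whereas miR-194-5p was higher (161 CPM in mOC and 94.7 CPM in pOC). With the authors' scaling constants miR-194-5p was called higher. The 10 stromal markers summed to 1581 CPM in mOC and 1556 CPM in pOC, with miR-214-5p at 0 in pOC. Most of that sum was miR-199a-3p (953 CPM in mOC and 895 CPM in pOC), whereas 5 of the 9 stromal markers with enough counts were called lower in mOC and 0 higher, with a median log2 ratio of -1.32. The numbers of erythroid and of stromal markers called were the same under all 5 scalings. The part of these sources in the levels of the miR-34 family was not tested.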

How the data were processed

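The authors deposited raw read counts per mature miRNA, per the file headers, 1 column per library. Their deposited normalised columns, treated as a score, are the same counts over a constant for the library, times 1000000, and served only as an alternative scaling. Per the file headers, the authors also gave for each comparison a log2 fold change, its ratio form (fold) and an unadjusted p-value. The submitters' processing notes name FastQC, HISAT2, StringTie and GRCm38, without versions or roles. Library kit, trimming and the handling of multiply matching reads are unstated.

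Columns were matched by name (OC to mOC, POC to pOC). Of 36 per-sample columns 30 were not used: 12 headed R, which matches no label, and 18 repeats.

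Counts were scaled to column totals, and log2 ratios used a pseudocount of 1 count, scaled by library size. Intervals are exact: Poisson for levels, Clopper-Pearson for folds and shares, conditional for ratios of ratios. They treat reads as independent, and no test with replicates was possible. The calculations were tested on simulated data. Tools were Python 3.11.15, SciPy 1.17.1, edgeR 4.0.16 and DESeq2 1.42.0, the last for size factors only. edgeR's exact test with TMM scaling and an assumed coefficient of variation of 0.1 gave the authors' log2 values of pOC over mOC within 0.001 and p-values within 1% for 899 of 899 miRNAs.

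Named miRNAs were the 5 members, other arms and seed relatives, p53-related miRNAs past 2-fold with at least 50 counts in a library, and the 3 nearest by pattern. The members and lists were chosen with earlier results of these data known.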

Additional observations from a re-analysis of the deposited data

Results flagged for a closer look

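Among the members and their relatives, the authors' deposited fold changes over R had opposite signs at the 2 stages in 3 cases. Opposite signs occurred outside the family too, as for let-7d-5p (0.87 in mOC and -0.55 in pOC). Their share over all miRNAs was not counted, so the 3 cases are not read as a trait of the family. With 1 library per stage and R shared, the difference was not tested with replicates. For miR-34a-5p the authors' deposited table gave a log2 fold change of 0.33 in mOC and -0.72 in pOC. For miR-34b-3p it gave -0.14 in mOC and 0.25 in pOC, on 2 counts in each library. For miR-449c-5p it gave 0.21 in mOC and -2.41 in pOC, on 9 counts in mOC and 1 in pOC.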

How the results depend on the processing

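Over 5 scalings, 2 pseudocounts and the count minimums, the log2 ratio of mOC over pOC ran from 1.03 to 1.36 for miR-34a-5p, 0.11 to 0.43 for miR-34b-5p, -0.43 to -0.10 for miR-34c-5p and -1.94 to -1.60 for miR-34c-3p, with no call changed. The scalings of miR-449a-5p and of the lists were compared after the data were seen. The 3p strands have no value at a minimum of 50 counts. The constants of the authors' normalised columns shift the log2 ratios of mOC over pOC by 0.27, or less at low counts, given the pseudocount. They turn the calls over all miRNAs from 49 higher and 69 lower into 80 higher and 49 lower. The authors' deposited fold changes of pOC over mOC do not follow these constants. The log2 change of miR-34a-5p against the miR-34b and miR-34c strands, 1.44, was 2.75 with only the 3p strands below, which hold 8 counts in mOC and 21 in pOC. The number of miRNAs called, 118, was 75 at a minimum of 50 counts in 1 library. It was 98 by edgeR's exact test with an assumed coefficient of variation of 0.1, and 0 at 0.4, where 31 had an unadjusted p under 0.05. Without the p-value, the authors' deposited table has 329 miRNAs 2-fold different in mOC over R in place of 108, and 338 in pOC over R in place of 96. The members 2-fold higher in pOC over R, 3 in the authors' deposited table, were 1 with at least 50 counts in pOC itself, since miR-34b-5p and miR-34c-3p have fewer. No paired analysis was possible because each group has 1 library. Depth limits the 3p strands most, and the spread between cultures was not measured.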
